A study of Mus musculus with 12 samples.

Results

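The expression of 10 genes of the NF-κB system was examined in murine hip cartilage before and after injury. They were the subunit genes Rela, Nfkb1, Relb and Nfkb2, the classical inhibitor genes Nfkbia and Nfkbie, the atypical IκB genes Bcl3 and Nfkbiz, and Tnfaip3 and Birc3, which encode ubiquitin-modifying enzymes. Members were taken by gene symbol, without regard to case, and the rule itself uses no measured value. Of the 45281 probes of the array, 13 carried a member symbol. The normalized table holds 21004 probes for 15424 symbols, and 11 of these probes belonged to 9 of the 10 genes. Birc3 and a second Nfkbie probe were measured only in the table of raw signals.

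RNA from cartilage of the femoral head was hybridized to 12 Illumina mouse BeadChips, which carry 50-base probes on coated beads. Mice were of the C57BL6 strain and 4 to 6 weeks old per the labels. They were either WT or Mapk9 KO, lacking a gene for a c-Jun N-terminal kinase, and cartilage of each genotype was either control or taken 4 h post injury, with 3 arrays in each of the 4 groups. Injury was the avulsion of the femoral epiphysis. Each replicate combined 6 hips of 3 mice, a pooling that the methods describe for control and injured cartilage without naming the genotype. The sources used here do not say in which cells Mapk9 was deleted or how many lines were used. Control hips were frozen at once and injured hips were kept in serum-free culture for 4 h, so injury and culture cannot be told apart.

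NF-κB proteins are transcription factors that bind DNA as pairs of Rel-family subunits. In resting cells they are held in the cytoplasm by IκB proteins. Signals from cytokine receptors and damaged tissue activate the IκB kinase complex, the IκB proteins are degraded, and the freed dimers enter the nucleus. Many of the genes they switch on encode their own inhibitors, which gives the system its negative feedback, and NF-κB signalling in chondrocytes is known for driving inflammatory and matrix-degrading genes.

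Probe sequences are shown for the 2 genes with more than 1 normalized probe, because the probes of a gene did not give the same result, and for the genes with the largest changes. All are as deposited, 50 bases long and in lower case, and 0 other probes in the table shared the sequence of any of the 11 member probes. The deposited probe coordinates name no genome build and are not given.
Nfkbia main probe: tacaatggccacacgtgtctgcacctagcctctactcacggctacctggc
Nfkbia second probe: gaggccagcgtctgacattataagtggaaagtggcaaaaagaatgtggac
Nfkb1 main probe: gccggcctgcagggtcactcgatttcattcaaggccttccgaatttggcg
Nfkb1 second probe: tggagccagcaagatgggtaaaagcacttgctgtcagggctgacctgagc
Nfkbiz: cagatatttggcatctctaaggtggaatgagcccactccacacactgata
Tnfaip3: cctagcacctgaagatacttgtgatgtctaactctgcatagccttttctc
Bcl3: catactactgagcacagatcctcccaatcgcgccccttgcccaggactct

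The promoters of members were searched for the κB consensus, the DNA element bound by NF-κB dimers, because 4 of the members upregulated in both genotypes have a promoter in the RefSeq table used here (GRCm38.p6). Each window runs from 250 bases before to 50 bases after an annotated start site. The consensus was taken as 3 G, a purine, any 2 bases, 2 pyrimidines and 2 C, read on both strands. Of the 10 members, 7 had a window, and 5 of these held at least 1 match: Nfkbia, Nfkbie, Nfkb2, Tnfaip3 and Bcl3. These 7 genes had 10 windows in all, of which 7 held a match. For the genes with several start sites, Tnfaip3 and Nfkb2, the first window with a match is shown. Across all 27025 genes with a window, 9.6% held a match, and across all 32851 windows 8.5% did. Matches are in capitals, and the gene-strand sequences are printed 5′ to 3′.
Nfkbia, chr12:55492598-55492897, minus strand: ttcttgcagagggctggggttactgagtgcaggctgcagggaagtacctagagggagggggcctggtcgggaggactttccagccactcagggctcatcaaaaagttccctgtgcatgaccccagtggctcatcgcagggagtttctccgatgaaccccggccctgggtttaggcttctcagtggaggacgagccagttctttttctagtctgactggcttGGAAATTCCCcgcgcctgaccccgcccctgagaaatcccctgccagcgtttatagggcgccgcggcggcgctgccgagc
Tnfaip3, chr10:19015361-19015660, minus strand: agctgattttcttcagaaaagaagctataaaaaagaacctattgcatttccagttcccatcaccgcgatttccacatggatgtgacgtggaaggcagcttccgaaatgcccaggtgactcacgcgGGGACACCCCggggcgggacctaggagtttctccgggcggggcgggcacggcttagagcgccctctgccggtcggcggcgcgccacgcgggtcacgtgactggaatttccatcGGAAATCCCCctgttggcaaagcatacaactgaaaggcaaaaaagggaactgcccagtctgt
Nfkb2, chr19:46304487-46304786, plus strand: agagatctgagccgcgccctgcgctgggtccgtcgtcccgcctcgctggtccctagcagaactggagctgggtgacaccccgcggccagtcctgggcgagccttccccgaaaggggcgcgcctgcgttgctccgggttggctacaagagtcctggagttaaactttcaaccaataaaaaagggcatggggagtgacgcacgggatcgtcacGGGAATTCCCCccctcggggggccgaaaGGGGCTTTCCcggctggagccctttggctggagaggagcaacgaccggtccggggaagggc
Bcl3, chr7:19822706-19823005, minus strand: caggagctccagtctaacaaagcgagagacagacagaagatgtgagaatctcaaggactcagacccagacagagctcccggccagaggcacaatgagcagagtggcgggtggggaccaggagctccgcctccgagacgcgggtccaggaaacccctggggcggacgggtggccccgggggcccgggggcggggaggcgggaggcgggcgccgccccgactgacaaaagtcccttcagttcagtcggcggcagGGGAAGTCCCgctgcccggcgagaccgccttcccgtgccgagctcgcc

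The Nfkbia window held GGAAATTCCC with its first base 29 bases before the start site. The Tnfaip3 window shown held GGAAATCCCC 12 bases before the start site and GGGACACCCC 125 bases before it, while the other Tnfaip3 window held 0 matches. In the Nfkb2 window shown, GGGAATTCCC and the overlapping GGAATTCCCC began 39 and 38 bases before the start site, and GGGGCTTTCC began 11 bases before it. The Bcl3 match, GGGAAGTCCC, began 2 bases after the start site, and the Nfkbie window held GGGGGATTCC 106 bases before its start site. The windows of Rela and Birc3 held 0 full matches. The motif TGANTCA, bound by AP-1 factors, was present in windows of 3 members, compared with 9.0% of all genes. In the list of 36 NF-κB target genes used below, 25 had a window and 11 of these held a κB match. A match describes the sequence and was not tested as a binding site.

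Expression values are the deposited log2 values after background correction and vsn normalization, and a difference of 1 is a 2-fold change. Levels of different genes were not compared with each other. A probe was called detected on an array with a detection p-value under 0.05, and between 16930 and 18969 probes were detected per array. Each comparison was fitted with limma on all 21004 probes with Benjamini-Hochberg adjustment. A gene was called upregulated or downregulated where the adjusted p was under 0.05 and the fold change above 2, read from the probe with the highest mean (the main probe). Errors of fold changes are the SE of the limma fit on the log2 scale, and n = 3 arrays per group throughout. For a single value, an exact permutation test has 20 splits of 3 against 3 arrays, and its smallest two-sided p is 0.1.

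The knockout was visible in both Mapk9 probes. One was at 10.50 to 10.90 on WT control arrays and 9.14 to 9.28 on Mapk9 KO control arrays, where it was still detected. The other was at 6.23 to 7.29 on WT control arrays and was detected on 0 of the 6 Mapk9 KO arrays. Whether either probe lies in the deleted part is not known here. The defining markers of chondrocytes were present, since the 12 of 14 in the table were detected on every array. Markers of skeletal muscle, neutrophils, macrophages and other cells were detected as well, and their movement with injury is given beside the results it touches.

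In WT cartilage, the feedback inhibitors Nfkbia and Tnfaip3, the atypical IκB genes and the subunit Nfkb2 were upregulated 4 h post injury, and Rela, Nfkb1 and Nfkbie were not called. Of the 9 genes in the normalized table, 5 were called upregulated, namely Nfkbiz, Tnfaip3, Bcl3, Nfkbia and Nfkb2, and 0 were downregulated. The background is 7.55% of all probes upregulated and 7.14% downregulated. All 9 main probes had each injured array above each control array, compared with 20.3% of all probes. Their median fitted log2 fold change was 1.40, which is the value of Nfkb2, and 0.93 with Nfkb2 at its bound, against -0.02 over all probes. Of the 21004 probes in the table, 19992 were detected on at least 3 arrays, and Birc3, outside it, was detected on none. Among the WT arrays Nfkb2 was detected on the injured ones alone, and its bound of 1.90-fold is below the fold limit. Its call in WT therefore rests on the fitted value, and the counts describe the 9 listed genes and not Birc3.

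**Figure D1:**
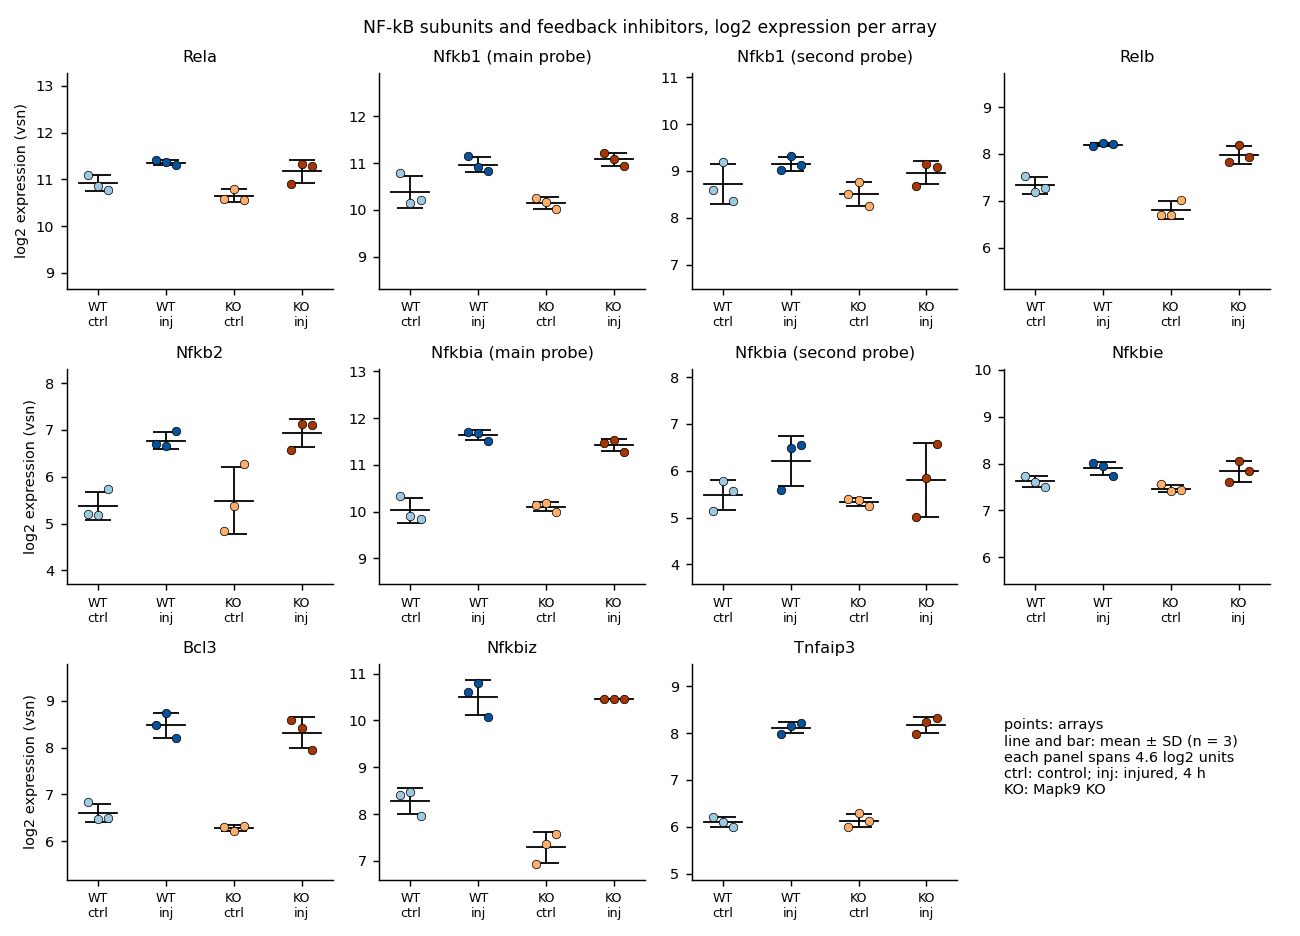
Log2 expression (y axis) of the 11 NF-κB member probes on each array, by group (x axis: WT control, WT injured, Mapk9 KO control, Mapk9 KO injured). Points are arrays, the lines and bars are mean ± SD (n = 3), and every panel spans 4.6 log2 units. Nfkbiz, Tnfaip3, Bcl3 and the main Nfkbia probe have all injured arrays far above all control arrays, while Rela and Nfkbie move little.

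Among the subunits, Rela, the main transactivating partner of the classical dimer, was at 11.10, 10.87 and 10.77 on the WT control arrays and at 11.42, 11.37 and 11.30 on the WT injured arrays. The injured arrays were all higher, but the rise of 0.45 ± 0.19 did not pass the test (limma, adjusted p = 0.119). In Mapk9 KO, Rela was at 10.58, 10.80 and 10.56 in controls and at 10.90, 11.34 and 11.30 post injury. The difference of 0.53 ± 0.19 had an adjusted p of 0.0459 in limma but stayed under the fold limit. Rela was thus not called in either genotype.

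Nfkb1 encodes the precursor of the DNA-binding partner of Rela. Its main probe was at 10.78, 10.14 and 10.22 on WT control arrays and at 11.15, 10.91 and 10.83 post injury. The first control array lay close to the injured arrays, and the difference of 0.58 ± 0.23 did not pass the test (limma, adjusted p = 0.0890). With the replicate number as a block its adjusted p was 0.0453, with the fold change still under the limit, and the same-numbered pairs rose by 0.37, 0.77 and 0.61. In Mapk9 KO, the controls at 10.26, 10.16 and 10.02 were well separated from the injured arrays at 11.21, 11.09 and 10.94. This rise of 0.93 ± 0.17 passed the adjusted p (limma, 0.00149) at 1.91-fold, just below the fold limit. The second Nfkb1 probe, which the table assigns to another transcript record, changed by 0.44 ± 0.24 in WT and 0.45 ± 0.20 in Mapk9 KO, and its groups overlapped in both.

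Relb encodes the transactivating subunit of the alternative pathway. It was at 7.54, 7.18 and 7.27 on WT control arrays and at 8.16, 8.23 and 8.20 on WT injured arrays. The injured arrays were tightly grouped above the controls, and the rise of 0.87 ± 0.19 passed the adjusted p (limma, 0.00913) at 1.82-fold, below the fold limit. In the knockout it was at 6.69, 6.69 and 7.02 in controls and at 7.82, 8.20 and 7.93 post injury. Here the rise was 1.18 ± 0.19, a 2.27-fold change, and was called (limma, adjusted p = 0.000564). With quantile-normalized signals without background correction the rise was 0.71 and was no longer called. A difference in injury effect between the genotypes was not established for Relb (0.31 ± 0.25, 95% interval -0.21 to 0.84, limma interaction, adjusted p = 0.709).

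Nfkb2 encodes the precursor of the partner of Relb and was the only 1 of the 4 member subunits called in both genotypes. On WT control arrays it was at 5.21, 5.19 and 5.73 and was detected on 0 of 3, whereas all 3 injured arrays detected it, at 6.69, 6.65 and 6.98. Because the control level is only a bound, Nfkb2 was at least 1.90-fold higher post injury (limma on measured values, 1.40 ± 0.22, adjusted p = 0.00155). Nfkb2 is thus called in WT on its fitted value, since the bound is below the fold limit. In the knockout it was at 4.84, 5.37 and 6.27 in controls, where 1 array detected it, and at 6.58, 7.12 and 7.10 post injury. The Mapk9 KO controls were the most spread of any group for this gene (SD 0.72) and 2 of them were not above background, so the fitted rise of 1.44 ± 0.32 (limma on measured values, adjusted p = 0.00475) rests on a control level measured on 1 array. With the fold read from quantile-normalized signals without background correction, the rise was 0.57 in both genotypes and was no longer called, and under the methods' t-test the Mapk9 KO rise had an adjusted p of 0.0905.

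Of the classical inhibitors, Nfkbia encodes IκBα, the inhibitor that is degraded and resynthesized in a fast feedback loop. Its main probe was at 10.32, 9.92 and 9.84 on WT control arrays and at 11.70, 11.69 and 11.52 post injury. Every injured array was more than 1 log2 unit above every control array, and the rise of 1.61 ± 0.21 was 3.05-fold (limma, adjusted p = 0.000462). The same probe rose from 10.14, 10.18 and 9.99 to 11.46, 11.52 and 11.29 in Mapk9 KO, a change of 1.32 ± 0.17 or 2.49-fold (limma, adjusted p = 0.000136).

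The second Nfkbia probe did not follow the main probe. It was at 5.14, 5.77 and 5.56 on WT controls, detected on 0 of 3, and at 5.60, 6.49 and 6.56 post injury, detected on 2 of 3. Its groups overlapped, and it was at least 1.29-fold higher post injury, which was not called (limma on measured values, 0.73 ± 0.29, adjusted p = 0.0955, and 0.0257 with the replicate block). On Mapk9 KO arrays the controls were at 5.40, 5.38 and 5.24 and the injured arrays at 5.01, 5.84 and 6.58, with 1 injured array below all controls. The table places both probes on one transcript record, the main probe starting at base 606 and the second at base 988, so the choice of probe decides whether Nfkbia was called. Without the first WT injured array, the second probe passed both thresholds on measured values (1.03, limma, adjusted p = 0.0242), against controls that were not above background.

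Nfkbie encodes IκBε, an inhibitor known for slower feedback. It was at 7.73, 7.61 and 7.50 on WT control arrays and at 8.01, 7.95 and 7.74 post injury. The lowest injured array was just above the highest control, and the difference of 0.28 ± 0.19 did not pass the test (limma, adjusted p = 0.323). In Mapk9 KO the levels were 7.55, 7.41 and 7.43 in controls and 7.60, 8.06 and 7.83 post injury, a difference of 0.36 ± 0.18 (limma, adjusted p = 0.140). The 95% interval of the WT difference, -0.15 to 0.71, lies wholly below the fold limit of 1 log2 unit. The Nfkbie probe outside the normalized table had signals of 99.2 to 168.5 intensity units and was detected on 0 of 12 arrays.

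The atypical IκB genes Bcl3 and Nfkbiz encode nuclear proteins that modulate the transcription of NF-κB targets. Bcl3 was at 6.83, 6.48 and 6.49 on WT control arrays and at 8.48, 8.74 and 8.21 post injury. Its rise of 1.88 ± 0.22 was 3.67-fold (limma, adjusted p = 0.000255), and no injured array came within 1 log2 unit of a control. On Mapk9 KO arrays Bcl3 was at 6.30, 6.21 and 6.32 in controls and at 8.58, 8.41 and 7.95 post injury. This rise of 2.04 ± 0.20 was 4.11-fold (limma, adjusted p = 2.01e-05). Without background correction, under quantile normalization, the rises were 1.17 in WT and 1.20 in Mapk9 KO and were still called.

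Nfkbiz, encoding IκBζ, had the largest fold change of the 9 genes in both genotypes. It was at 8.40, 8.48 and 7.96 on WT control arrays and at 10.60, 10.79 and 10.08 post injury. The rise of 2.21 ± 0.25 was 4.62-fold (limma, adjusted p = 0.000200) and ranked 294 among 21004 probes by fold change. On Mapk9 KO arrays Nfkbiz was at 6.94, 7.35 and 7.57 in controls and at 10.45, 10.46 and 10.46 post injury. The injured Mapk9 KO arrays were almost identical, and the rise of 3.17 ± 0.20 was 9.0-fold (limma, adjusted p = 8.99e-07) and ranked 131. Under quantile normalization without background correction the rises were 1.82 in WT and 2.51 in Mapk9 KO. By same-numbered pairs of arrays, the injured array exceeded its control by 2.12 to 2.31 in WT and by 2.89 to 3.51 in Mapk9 KO.

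Of the ubiquitin-modifying enzymes, Tnfaip3 encodes an enzyme that removes activating ubiquitin chains upstream of the IκB kinase complex. It was at 6.20, 6.10 and 5.99 on WT control arrays, of which 2 detected it, and at 7.98, 8.15 and 8.22 post injury. The rise of 2.02 ± 0.19 was 4.06-fold (limma, adjusted p = 8.09e-05). On Mapk9 KO arrays it rose from 5.99, 6.29 and 6.12 to 7.98, 8.24 and 8.31, by 2.05 ± 0.18 or 4.13-fold (limma, adjusted p = 9.40e-06). With quantile-normalized signals without background correction the rises were smaller, at 1.13 and 1.16 in WT and Mapk9 KO, and were still called. The 4 group levels fell into a control pair and an injured pair, and within each pair the genotypes overlapped.

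Birc3, which encodes a ubiquitin ligase of TNF receptor complexes, was not detected on any of the 12 arrays by its only probe. Its raw signals were 147.3, 108.1 and 152.1 intensity units on WT control arrays, 147.9, 114.5 and 161.8 on WT injured arrays, 136.4, 117.6 and 141 on Mapk9 KO control arrays, and 146.6, 117.3 and 153 on Mapk9 KO injured arrays. The detection p-values ran from 0.0833 to 0.411, the groups overlapped, and no fold change is given. These signals are not normalized, and the arrays with low Birc3 signals also had the lowest median signal in their group.

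In Mapk9 KO cartilage, 6 of the 9 genes were called upregulated post injury, against a background of 9.59% of all probes, and 0 were called downregulated, against 9.14%. They were the 5 genes called in WT and Relb. All 9 main probes had each injured array above each control, compared with 24.5% of all probes, and the median log2 fold change was 1.32 against -0.02 over all probes. Taking both genotypes together, 7 main probes had all 6 injured arrays above all 6 control arrays, compared with 13.2% of all probes. The 2 exceptions were Rela and Nfkbie.

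**Figure D2:**
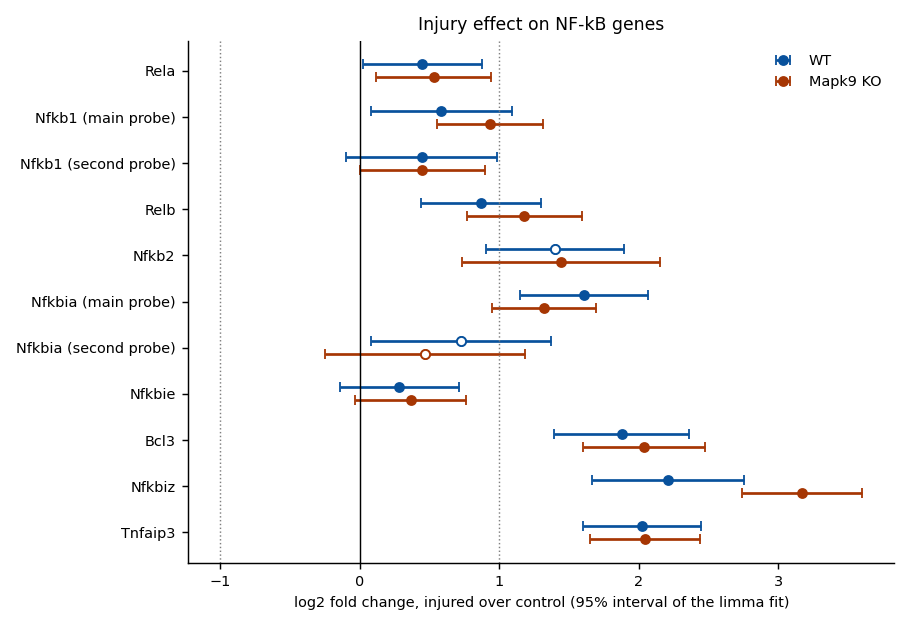
Log2 fold change of injured over control cartilage (x axis) for the 11 member probes (y axis), in WT (blue) and Mapk9 KO (orange-brown). Points are limma estimates, bars their 95% intervals, and dotted lines the 2-fold limit. Open points mark probes that a whole group did not detect. The intervals of the 2 genotypes overlap for every probe, and the points lie farthest apart for Nfkbiz (2.21 and 3.17).

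These changes moved together with changes in cell type markers. For the counts that follow, the background of all probes is 7.55% upregulated and 7.14% downregulated in WT, and 9.59% and 9.14% in Mapk9 KO. Of the 12 chondrocyte genes measured, 8 were upregulated in WT and 8 in Mapk9 KO, and the mean of the list went from 10.9–11.6 on WT controls to 12.7–12.9 on WT injured arrays. Of the 12 skeletal muscle genes, 11 were downregulated in WT and 12 in Mapk9 KO, the list mean going from 11.5–12.8 to 8.47–10.6 in WT and from 12.9–13.3 to 8.99–10.3 in Mapk9 KO. Of the 9 neutrophil genes, 4 were upregulated in each genotype, with list means of 11.97–12.64 and 13.3–13.5 on WT control and injured arrays and 12.4–12.7 and 13.1–13.6 in Mapk9 KO. All of these neutrophil genes were detected on every array. Of the 10 macrophage genes, 6 were downregulated in WT and 7 in Mapk9 KO, while Cd14, a co-receptor for bacterial lipopolysaccharide, was upregulated by 5.01 ± 0.23 in WT (limma, adjusted p = 1.13e-06).

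Lymphocyte, erythroid, endothelial and bone cell lists had at most 2 called genes each in WT and at most 4 in Mapk9 KO. The list means of lymphocyte genes were 7.88–8.42 on WT control and 8.59–8.73 on WT injured arrays, and overlapped in Mapk9 KO, at 8.16–8.45 and 8.22–8.35. The bone cell genes called were all downregulated, 2 in WT and 4 in Mapk9 KO, and their list mean overlapped in WT (11.48–12.01 and 11.22–11.55) and went from 11.59–11.97 to 10.86–11.09 in Mapk9 KO. The erythroid mean overlapped in WT and went from 12.50–12.67 to 11.72–12.13 in Mapk9 KO, and the endothelial mean overlapped in both. Their part in the changes of the NF-κB genes, and that of the muscle, neutrophil and macrophage markers, was not tested. In a bulk sample, fewer cells of a type and less RNA per cell cannot be told apart.

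**Figure D3:**
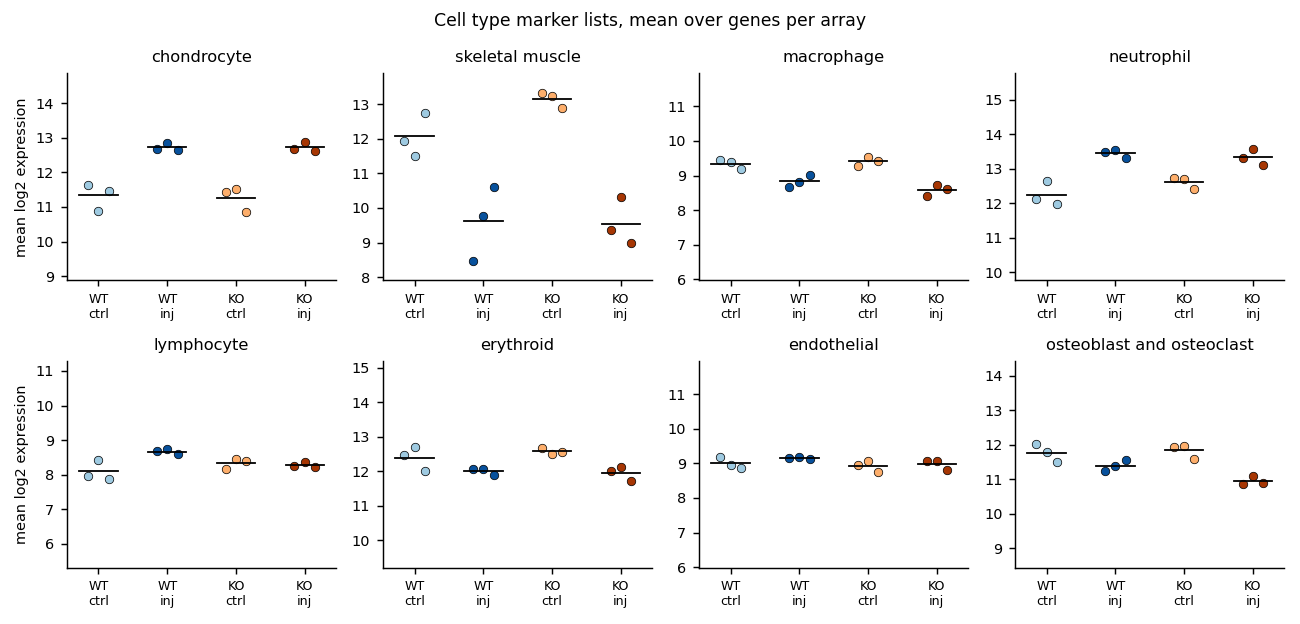
Mean log2 expression over the genes of 8 cell type marker lists (1 list per panel, y axis) on each array, by group (x axis). Points are arrays and lines are group means (n = 3), and every panel spans 6 log2 units. The muscle list is lower and the chondrocyte and neutrophil lists are higher on injured arrays of both genotypes, and the muscle list is higher on Mapk9 KO controls than on WT controls.

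In uninjured cartilage, no member was called different between Mapk9 KO and WT, against a background of 0.119% of all probes called. At an unadjusted p under 0.05 in limma, 2 of the 9 genes differed, Nfkbiz and Relb, against 6.46% of all probes, and the methods' t-test called 0 after adjustment and gave 2 at the unadjusted threshold. Nfkbiz was lower in Mapk9 KO controls by 0.99 on the log2 scale (SE 0.24, 95% interval -1.53 to -0.46, limma, adjusted p = 0.397), and all 3 Mapk9 KO controls were below all WT controls. Relb differed by -0.53 ± 0.21 and Bcl3 by -0.32 ± 0.20, with adjusted p of 0.715 and 0.879 in limma, and their controls did not overlap either. Across all probes, 6.57% had Mapk9 KO controls below WT controls without overlap. The other 6 genes overlapped, and 5 of them had differences between -0.26 (Rela) and 0.08 (Nfkbia). Nfkb2 was not above background on WT controls and on 2 of 3 Mapk9 KO controls, so its fitted difference is no measured fold. With quantile-normalized signals without background correction, the differences were -0.64 for Nfkbiz, -0.28 for Relb and -0.13 for Bcl3, and 0 were called.

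The call of Nfkbiz in controls depended on 1 array. Without the third WT control array, it was -1.15 and was called (limma, adjusted p = 0.0477), while 412 probes in all were then called compared with 25 with all arrays. Marker lists were compared between the same control arrays. The mean of the muscle list was 11.5–12.8 on WT and 12.9–13.3 on Mapk9 KO control arrays, without overlap. All 12 muscle genes had a positive difference, of which 0 were called. The 9 neutrophil genes also all had a positive difference (median 0.33), and 0 were called. Their list means overlapped, at 11.97–12.64 on WT and 12.41–12.72 on Mapk9 KO control arrays. The part of either list in the Nfkbiz difference was not tested.

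Post injury, no member was called different between genotypes, against 0.181% of all probes, and the 2 groups overlapped for all 9 genes, whereas 7.36% of all probes were higher and 9.47% lower in Mapk9 KO without overlap. In limma 0 genes had an unadjusted p under 0.05, and the methods' t-test gave 0 as well. The differences ran from -0.22 (Relb) to 0.16 (Nfkb2). For Nfkbiz the difference was -0.03 ± 0.20, with a 95% interval of -0.48 to 0.41, and its sign changed under some processing choices. The 95% intervals of all 9 main probes stayed within 1 log2 unit in either direction.

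The injury effect itself was compared between genotypes with an interaction term over all 12 arrays, in which 0 of 21004 probes (0%) and 0 members passed. With the replicate number as a block 112 probes passed, among them 0 members. At an unadjusted p under 0.05 there was 1 of the 9 members, Nfkbiz, a share near the 9.94% of all probes. The fitted injury effect of Nfkbiz was larger in Mapk9 KO by 0.96 ± 0.32 (95% interval 0.28 to 1.64, limma, adjusted p = 0.360, unadjusted p = 0.00915). With the replicate number as a block the adjusted p in limma was 0.165, so a difference in injury effect was not established. The 3 Mapk9 KO pairs all rose more than the 3 WT pairs. In the same term the muscle list had a median of -1.07, with 0 of 12 genes positive, and the neutrophil list -0.48, with 0 of 9 positive, and their part in the Nfkbiz value was not tested. The comparisons share arrays: the lower Mapk9 KO controls enter both this term and the difference between controls, and the injured levels of 10.49 ± 0.37 and 10.46 ± 0.01 (SD) overlapped. For 7 of the other genes the interaction lay between -0.29 (Nfkbia) and 0.35 (Nfkb1), with adjusted p from 0.707 to 0.982 in limma, and for Nfkb2 it rests on controls mostly not above background.

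**Figure D4:**
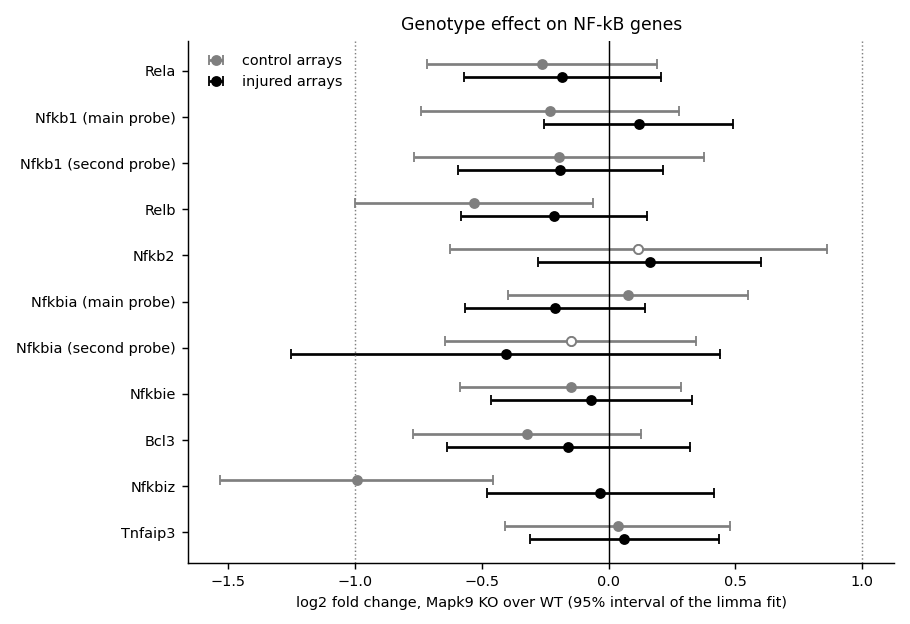
Log2 fold change of Mapk9 KO over WT (x axis) for the 11 member probes (y axis), on control arrays (grey) and injured arrays (black). Points are limma estimates, bars their 95% intervals, and dotted lines the 2-fold limit. Open points mark probes that a whole group did not detect (Nfkb2 and the second Nfkbia probe in controls). The control intervals of Nfkbiz (-1.53 to -0.46) and Relb lie below 0, and all intervals on injured arrays include 0.

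The rest of the pathway was examined with gene lists ordered by role. Of 8 other Rel and IκB family genes, all measured, 2 were upregulated in each genotype and 0 downregulated. Over all probes, 7.55% were upregulated and 7.14% downregulated in WT, and 9.59% and 9.14% in Mapk9 KO. One of the 2 was Rel, the subunit gene of c-Rel. It was at 5.15, 4.37 and 3.45 on WT controls, detected on 0 of 3, and at 6.43, 6.62 and 6.16 post injury. It was at least 1.47-fold higher post injury in WT (limma on measured values, 2.08 ± 0.37, adjusted p = 0.00279) and at least 1.27-fold higher in Mapk9 KO. Both bounds are below the fold limit, so the calls of Rel rest on fitted values. The other was Nfkbid, an atypical IκB gene, which rose by 1.81 ± 0.26 in WT (limma, adjusted p = 0.000823) and 2.00 ± 0.21 in Mapk9 KO. Nfkbib, the classical inhibitor IκBβ, changed by 0.06 ± 0.20 in WT (limma, adjusted p = 0.866) and 0.13 ± 0.17 in Mapk9 KO.

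Of 19 genes of the IκB kinase complex and its upstream kinases, 2 were upregulated in WT and 0 downregulated, with a median of -0.08, and this share is near the 7.55% of all probes upregulated. They were Map3k8, a kinase that is held by the Nfkb1 precursor and signals to the ERK pathway, which rose by 1.53 ± 0.27 (limma, adjusted p = 0.00258), and Irak3, a negative regulator of Toll-like receptor signalling, by 1.15 ± 0.21 (limma, adjusted p = 0.00320). In Mapk9 KO, 2 were upregulated as well, Map3k8 by a fitted 2.79 ± 0.24 from controls of which 1 of 3 detected it, and Map3k14, the kinase of the alternative pathway, by 1.07 ± 0.17. The Irak3 difference there was 0.97 ± 0.18 (limma, adjusted p = 0.00141), under the fold limit. In WT, Map3k14 differed by 0.59 ± 0.20 (limma, adjusted p = 0.0554), and its groups did not overlap. The interaction was 1.26 ± 0.38 for Map3k8 and 0.48 ± 0.24 for Map3k14 (limma, adjusted p = 0.325 and 0.536). The kinase complex genes Chuk, Ikbkb and Ikbkg were called in neither genotype, at -0.23, 0.06 and -0.32 in WT. In Mapk9 KO, Chuk was at 0.59 ± 0.20 (limma, adjusted p = 0.0413) and Ikbkg at -0.46 ± 0.17 (limma, adjusted p = 0.0482), under the fold limit, and Ikbkb at 0.24 ± 0.17. Map3k14 and these kinase complex genes, with Bcl10, Tnfrsf1a and Il6 below, were named after their values were seen.

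Of 14 genes of ubiquitin ligases and adaptors around the receptors, 12 were measured and 1 was called in each genotype, a share near that of all probes (7.14% downregulated in WT and 9.59% upregulated in Mapk9 KO). In WT, 0 were upregulated and 1 was downregulated, Tradd, an adaptor of the TNF receptor, by -1.19 ± 0.29 (limma, adjusted p = 0.0140), and in Mapk9 KO the Tradd difference was 0.03 ± 0.23. The interaction for Tradd was 1.22 ± 0.40 (limma, adjusted p = 0.355), and its adjusted p with the replicate block was 0.0326. In Mapk9 KO, 1 was upregulated, the adaptor gene Bcl10, by 1.14 ± 0.17. In WT, Bcl10 rose by 0.66 ± 0.19 (limma, adjusted p = 0.0314), under the fold limit. The interaction for Bcl10 was 0.48 ± 0.23 (limma, adjusted p = 0.506). Of 12 partners of the Tnfaip3 protein and deubiquitinases, 11 were measured and 0 were called in either genotype, with fitted medians of 0.20 in WT (0.01 with 1 undetected gene at its bound) and 0.09 in Mapk9 KO.

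Of 16 receptors that feed NF-κB, 14 were measured. In WT, 4 were upregulated and 1 downregulated, and in Mapk9 KO 5 were upregulated, Tnfrsf1a being the addition, and 1 was downregulated. The shares of all probes were 7.55% upregulated and 7.14% downregulated in WT, and 9.59% and 9.14% in Mapk9 KO. Il1r2, the decoy receptor for IL-1, rose by 4.23 ± 0.34 (limma, adjusted p = 3.08e-05), Tnfrsf12a, the receptor for TWEAK, by 2.79 ± 0.26 (limma, adjusted p = 7.61e-05), and Tlr2, a Toll-like receptor, by 2.78 ± 0.21 (limma, adjusted p = 2.01e-05). Il1rap, the shared chain of IL-1 receptors, was at least 1.75-fold higher in WT, a bound below the fold limit, so its call rests on the fitted value. Tnfrsf11a, the receptor for RANKL on osteoclast precursors, fell by 2.98 on the log2 scale (SE 0.25, limma, adjusted p = 3.56e-05).

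Of 36 genes known as NF-κB targets, 32 were measured, and 17 were upregulated and 0 downregulated in WT, with a median fitted log2 fold change of 1.34, or 0.70 with undetected genes at their bound. In Mapk9 KO, 19 were upregulated and 1 downregulated (median 1.33, or 0.73 at the bounds), and 16 genes were upregulated in both. The background of all probes is 7.55% upregulated and 7.14% downregulated in WT, and 9.59% and 9.14% in Mapk9 KO. Of the 17, 8 were detected on no WT control array, and 1 of these, Il6, on no WT injured array either, while 8 of those called in Mapk9 KO were detected on no Mapk9 KO control array. The neutrophil chemokine gene Cxcl1 was at least 99.8-fold higher on WT injured arrays and Cxcl2 at least 25.1-fold, and Ccl2, a monocyte chemokine gene, at least 2.80-fold. Ccl7, another monocyte chemokine gene, rose by 3.64 ± 0.27 (limma, adjusted p = 1.91e-05) and the early response gene Ier3 by 3.50 ± 0.22 (limma, adjusted p = 5.90e-06). The neutrophil markers that rose on the same arrays are given above.

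**Figure D5:**
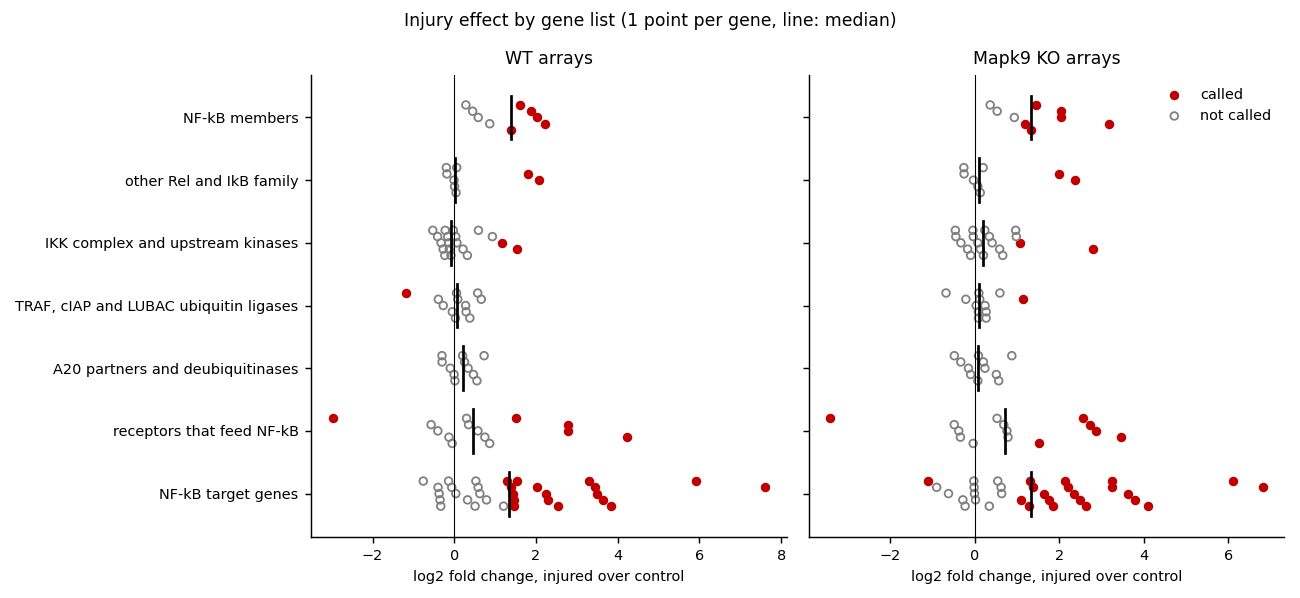
Log2 fold change of injured over control cartilage (x axis) for the genes of 7 NF-κB lists (y axis), in WT (left) and Mapk9 KO (right). Each point is a gene, filled red where called, and the black line is the list's median. All values are fitted ones. In WT the fitted median is 1.40 for the members and 1.34 for the target genes (0.93 and 0.70 with genes that a whole group did not detect at their bound), and between -0.08 and 0.46 for the other lists.

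Over the 12 arrays, the levels of the 9 member genes had Pearson r of 0.63 to 0.98 (median 0.87) in their 36 pairs. After the group means were subtracted, r ran from -0.49 to 0.89 (median 0.29), and 29 of the 36 pairs were positive. The closest pair was Nfkb1 and Nfkbia (0.89). The lowest values, -0.49, were those of Nfkb2 with these 2 genes, and Nfkb2 was above background on 1 of the 6 control arrays. These values are descriptions over 12 arrays that share 4 group means, replicate numbers and normalization.

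For the feedback inhibitors Nfkbia and Tnfaip3, the genes outside the members with the highest r are given. The levels of Nfkbia were most like those of Akap12, a scaffold gene for kinase A (r = 0.993 over 12 arrays), Inhbb as named in the file, an inhibin subunit gene (0.992), and Csnk1d, a casein kinase gene (0.992). The levels of Tnfaip3 were most like those of Cxcl2 (0.995), the probe named Cte1 in the file, now Acot1 (0.994), and 1810008K03Rik, now Chac1 (0.994). In deviations from the group means, Nfkbia was most like Rfx1, 9530068E07Rik and Smap2 (r = 0.983, 0.979 and 0.976), and Tnfaip3 most like Nsmf, Frrs1 and D030044A08Rik (0.976, 0.966 and 0.942). With 4 group means among 12 arrays, high values of r over the levels are common to probes that change with injury. The genes named for the deviations are likewise the highest among all probes over 12 arrays, and their likeness was not tested.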

How the data were processed

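RNA from 12 mouse cartilage samples was measured on Illumina BeadChips. The authors deposited raw signal intensities for 45281 probes with a detection p-value each, and log2 values for 21004 probes after background correction with negative control probes and vsn normalization. Package versions are not given in the sources used here. Groups and replicate numbers came from the sample labels. The deposited log2 values were tested with limma 3.58.1 (lmFit, eBayes) in R 4.3.3, separately for each comparison and over all 12 arrays for the interaction, with Benjamini-Hochberg adjustment over all probes and a fold limit of 2. Raw intensities were used for 2 member probes outside the table and in the alternatives. The number of arrays limits the precision, and p-values measure the spread between pools of hips.

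The 10 genes, the gene lists and the tests were proposed with earlier results of these data known, although the rule that finds their probes uses symbols only. Named list genes are up to 5 with the largest fold change among those called in WT, plus Rel, Nfkbib and Mapk9, while Chuk, Ikbkb, Ikbkg, Map3k14, Bcl10, Tnfrsf1a and Il6 were named after their values were seen. Where a gene had no detected array in a group, its fold was bounded from the lowest detected signal of each array. Symbols were matched to RefSeq genes by accession for 14489 probes and by symbol, older symbol or gene ID for 2434, 1491 and 155, and 2435 kept the file's name. The fit was tested on simulated data.

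The main fits used the groups only, and the replicate number entered as a block in an alternative. Deviations from group means correlated at 0.15 to 0.39 over 18 same-number pairs and at -0.29 to 0.08 over 36 others. Deviations within a group cancel out, so these ranges are not independent of each other. The labels do not state a pairing beyond the numbers. Alternatives were a replicate block, the label code as a block, neqc (offset 16), quantile normalization without background correction, median centring, a detection filter on 3 arrays, 1 probe per symbol, all arrays in the fit, the t-test of the methods, no fold limit, and each array left out.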

Additional observations from a re-analysis of the deposited data

How the results depend on the processing

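The number of NF-κB genes called was 4 to 6 in WT and 4 to 8 in Mapk9 KO over all alternatives. With each array left out in turn it was 5 to 5 in WT and 6 to 7 in Mapk9 KO, where Nfkb1 was called, at 1.00, without the third Mapk9 KO injured array. Quantile normalization without background correction gave the lowest counts, with Nfkb2 no longer called in WT and Nfkb2 and Relb (0.71) no longer called in Mapk9 KO, and no fold limit gave the highest. For genotype in controls the count was 0 under every alternative except without the third WT control array, where it was 1 (Nfkbiz, -1.15), so leaving out arrays gave 0 to 1. For genotype post injury and for the interaction it was 0 throughout. The sign of the Nfkbiz difference post injury, -0.03, changed to 0.058 with neqc, 0.053 with quantile normalization without background correction, 0.069 with the label code number as a block, and 0.023 and 0.117 without the first and the second WT injured array, and leaving out arrays gave -0.24 to 0.117. The cause was not tested.

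With the replicate number as a block, the counts of members were 5, 6, 0, 0 and 0, and the block changed no member's call under the fold limit. It brought Nfkb1 (0.0453) and the second Nfkbia probe (0.0257) in WT under the adjusted p threshold. Over all probes it changed the calls from 38 to 188 for genotype post injury and from 0 to 112 for the interaction, which was also 242 without the third WT control array. The WT injury count over all probes was 3086, and 1624 with the methods' t-test and 1140 with quantile normalization without background correction, which gave 1756 compared with 3934 in Mapk9 KO. For genotype in controls, 25 probes were called, 44 with all 12 arrays in one fit, 13 with quantile normalization without background correction, 412 without the third WT control array and 0 with the methods' t-test. For genotype post injury, leaving out 1 array gave 23 to 154 calls, and the methods' t-test and quantile normalization without background correction gave 0 and 22. Signals near background limited Nfkb2, Rel, Map3k8 and Tnfaip3 on control arrays and the second Nfkbia probe.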
